A study of Mus musculus with 8 samples.

Results

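The genes described here are 36 genes of DNA replication and of the passage from G1 into S phase, chosen by name from the gene symbols of a count table with 55335 rows, 52110 of them with a symbol. They were chosen with earlier results of these data known. Each of the 36 stood on 1 row, and all 36 were among the 17360 genes that passed the low-count filter. RNA was sequenced from primary fibroblasts of wild-type mouse lung, kept in culture medium with serum, in 4 groups: untreated, and recombinant TWEAK at 10 ng/ml, at 30 ng/ml or at 100 ng/ml, each over 48 hours. TWEAK is a cytokine of the TNF superfamily that acts through the receptor Fn14. A group had 2 libraries, which makes 8, and total counts ranged from 37345575 to 50896445 per library. Neither the age, sex and strain of the mice nor the origin of the paired libraries (separate cultures, separate mice or 1 source) is stated, so p-values measure only how far such libraries vary, which could be technical variation alone. Doses are given as labelled throughout, and the values did not follow the order of dose: 35 of the 36 genes had a lower fitted level at 100 ng/ml than at 10 ng/ml. Of all 17360 genes tested, 8696 did. A weaker response at 100 ng/ml was not particular to the 36. Over all genes, the test given below called 141 higher and 53 lower than untreated at 100 ng/ml, against 2610 and 2465 at 10 ng/ml.

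Before S phase, the origin recognition complex, Cdc6 and Cdt1 load the ring of Mcm2 to Mcm7 onto replication origins, a step called licensing. Cyclin E with its kinase and the E2F transcription factors then drive entry into S phase, and Cdc45 and the GINS complex join the loaded ring to form the active helicase. Primase and DNA polymerase alpha make primers, polymerases delta and epsilon extend them on the clamp Pcna, Fen1 and Lig1 join the lagging strand, and ribonucleotide reductase, Tyms and Tk1 supply nucleotides. Many of these genes are known targets of E2F and are low in resting fibroblasts.

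Levels are CPM, counts scaled to a common library total with trimmed mean of M values (TMM) factors, and 3 counts correspond to 0.0599 to 0.0801 CPM. Log2 changes are differences in level between 2 groups from edgeR's quasi-likelihood test, and a gene was called where its Benjamini-Hochberg adjusted p over all tested genes was under 0.05. All 3 comparisons with untreated cells share the same 2 untreated libraries. Fibroblast markers were abundant in every library, as the label says, with a summed level of 32430 to 33619 CPM over 10 genes in untreated cells. That sum was 17501 to 18037 CPM at 10 ng/ml, 18672 to 21540 at 30 ng/ml and 30475 to 31034 at 100 ng/ml. At 10 ng/ml 7 of the 10 fibroblast markers fell and 3 rose (Pdgfra, Dcn and Vim). Among those that fell were the abundant matrix genes Col3a1 and Fn1. Col3a1 measured 8952 and 8867 CPM in untreated cells and 1935 and 1885 CPM at 10 ng/ml. Fn1 measured 11992.5 and 11110.2 CPM in untreated cells and 6237.4 and 6894.6 CPM at 10 ng/ml. Over 10 macrophage and leukocyte markers the summed level was 29.4 to 33.3 CPM in untreated cells, 62.6 to 71.9 at 10 ng/ml, 54.0 to 66.6 at 30 ng/ml and 46.9 to 50.2 at 100 ng/ml. Of these, 3 rose at 10 ng/ml (Cd68, Cd14 and Mrc1), and C1qa was at 0 in every library. Mesothelial markers summed to 20.5 to 20.8 CPM in untreated cells and 6.52 to 8.63 at 10 ng/ml, and 4 of 7 fell. Smooth muscle and pericyte markers summed to 100.0 to 116.7 and 155.9 to 173.5 CPM in the same groups, where 3 of 7 rose and 2 fell. Des alone made up most of the higher sum, with 35.5 and 27.6 CPM in untreated cells and 118.6 and 111.0 CPM at 10 ng/ml. Endothelial markers summed to 17.3 and 9.37 to 12.3, and 1 rose and 1 fell, with Cdh5 at 0.180 and 0.120 CPM in untreated cells and 4.27 and 3.81 CPM at 10 ng/ml. Over 10 epithelial markers the sum was 0.699 to 0.923 CPM in untreated cells, 1.10 to 1.66 at 10 ng/ml and 1.23 to 2.22 at 30 ng/ml. Only 2 of these were tested, and at 30 ng/ml 1 rose and 1 fell. The 7 lymphocyte markers summed to at most 0.683 CPM in any library, and none passed the low-count filter. Epcam, Cldn18, Nkx2-1, Cd3e, Cd3g, Nkg7, Emcn and Tie1 were at 0 in every library. The part of other cell types in the results below was not tested.

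At 10 ng/ml, 27 of the 36 replication and G1/S genes rose and none fell, with the steepest rises in Uhrf1, Mcm10, Mcm5 and Mcm3. Of all 17360 genes tested, 15% rose and 14.2% fell in the same comparison. The median log2 change was 0.72 over the 36 genes and 0.01 over all tested genes. The 36 genes summed to 544 and 547 CPM in the untreated libraries, and to 955 and 894 CPM at 10 ng/ml. In such bulk RNA, a larger share of cells that express these genes and more of their RNA per cell cannot be told apart. The 9 genes that were not called were Orc6, Gins3, Pola2, Rfc4, Fen1, Tyms, Tk1, E2f1 and Ccne1.

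At 30 ng/ml, 23 of the 36 rose and none fell, against 12.6% and 10.7% of all genes tested. The median log2 change was 0.60, and the summed level was 883 and 843 CPM. Cdt1, Gins2, Gins4 and Prim2 were not called at this dose, with log2 changes of 0.57, 0.71, 0.19 and 0.44. Tested directly, 30 ng/ml against 10 ng/ml gave no call, neither among the 36 genes nor among all genes (0%), with edgeR. An unadjusted p under 0.05 was reached by 1208 of all 17360 genes tested and by 2 of the 36, a share no larger than that of all genes. These were Cdt1 and Gins2, both lower at 30 ng/ml, and DESeq2 also called none of the 36. The median difference was -0.10, and 28 of the 36 fitted differences were below 0, as were 8505 of the 17360 over all genes tested.

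At 100 ng/ml, none of the 36 was called with edgeR, where 0.812% of all genes rose and 0.305% fell. At an unadjusted p under 0.05, 11 of the 36 were higher, as were 1131 of all 17360 genes tested. DESeq2 called 3 of the 36, Gins2, Rrm2 and Uhrf1, and its calls over all genes were not counted. The median log2 change was 0.20, and the summed level was 609 and 639 CPM, above both untreated sums and below all sums at the lower doses. In 25 of the 36, both libraries lay above both untreated libraries, which held for 21.9% of all genes tested. Mcm2 and Tk1 lay below in both libraries, by 0.07 and 0.13 on the log2 scale, and neither was called.

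Set directly against 10 ng/ml, the level at 100 ng/ml was lower in 18 of the 36 genes and higher in none, where 11.2% of all genes were lower. The median log2 difference was -0.56. Against 30 ng/ml, 15 were lower and none higher, where 8.04% of all genes were lower, and the median difference was -0.46. All of the ring genes Mcm2 to Mcm7, with Mcm10, Cdc45, Pole, Pcna, Lig1, Uhrf1, Rrm1, Rrm2 and Ccne2, were lower in both of these tests, which share the 100 ng/ml libraries. Cdt1, Pola1 and Tk1 were called lower against 10 ng/ml and not against 30 ng/ml. Without the first library at 100 ng/ml the count against 30 ng/ml was 6, and without the first library at 30 ng/ml it was 8. The mean level was ordered 10 ng/ml above 30 ng/ml above 100 ng/ml above untreated in 20 of the 36 genes. That order was not counted over all tested genes, so whether it is more common among the 36 is not known. Fits without both libraries at 100 ng/ml called 26 genes at 10 ng/ml and 21 at 30 ng/ml.

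**Figure D1:**
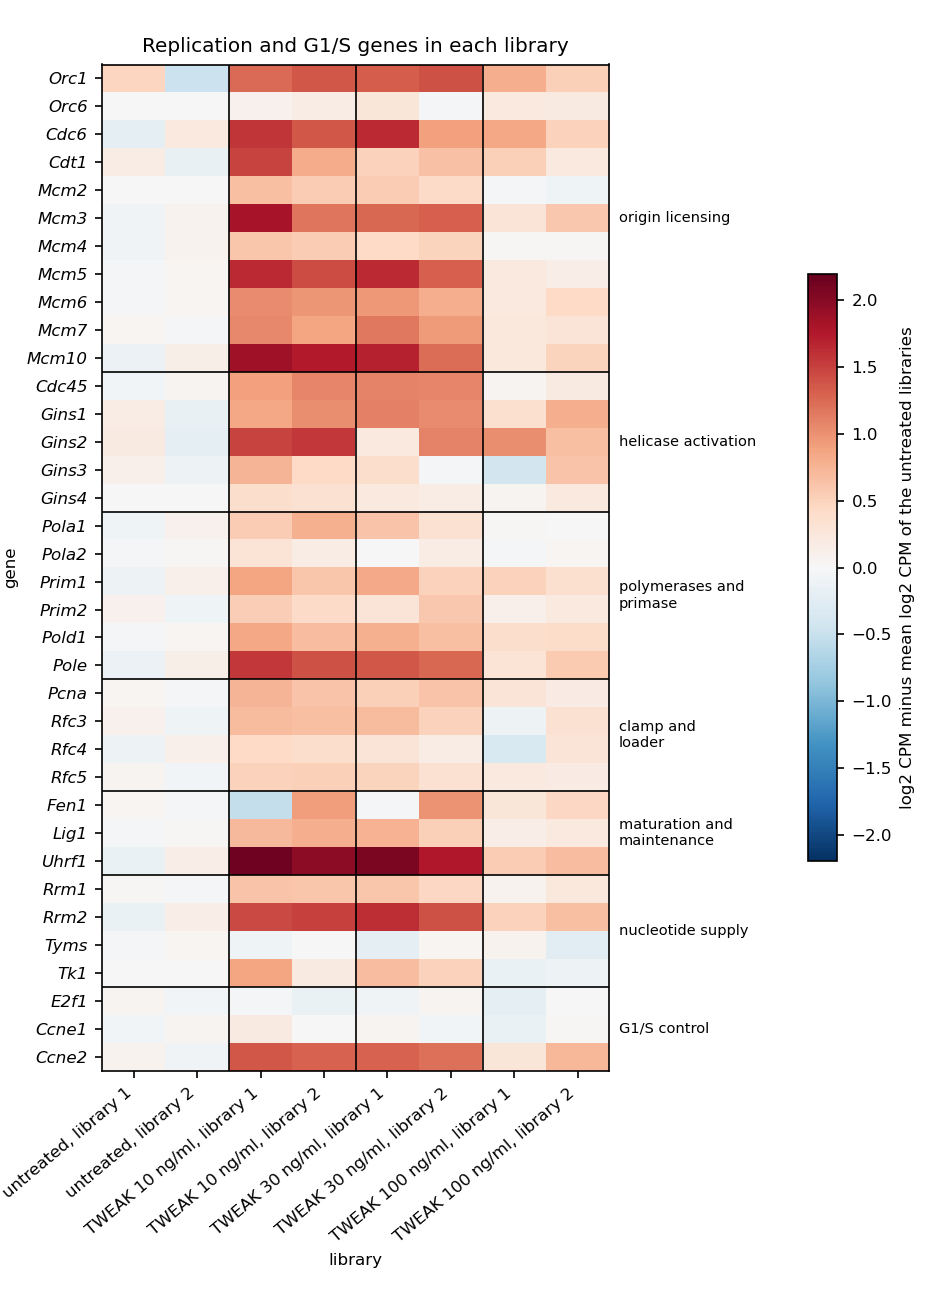
Log2 CPM of each of the 36 genes in each of the 8 libraries, minus the gene's mean log2 CPM over the 2 untreated libraries (color scale), with genes in rows by role and libraries in columns by group. The 10 and 30 ng/ml columns are red in most rows and the 100 ng/ml columns are paler, while Tyms, E2f1 and Ccne1 stay pale throughout and Fen1 differs between the libraries of a dose.

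The origin licensing group held 11 genes, with Mcm10 placed in it although it acts later, at the assembled helicase. Of the 11, 10 rose at 10 ng/ml and 9 at 30 ng/ml, with median log2 changes of 1.18 and 1.05. None was called at 100 ng/ml. Mcm5, a subunit of the helicase ring (chr8:75109569-75128439, + strand), measured 8.01 and 8.57 CPM in untreated cells, 25.9 and 22.3 at 10 ng/ml, 25.98 and 20.7 at 30 ng/ml and 9.65 and 9.18 at 100 ng/ml. All 4 libraries at 10 and 30 ng/ml stood far above the untreated pair, and the 100 ng/ml pair lay only just above it. Its log2 change was 1.54 ± 0.14 (SE, adjusted p = 0.000148) at 10 ng/ml and 1.49 ± 0.14 (SE, adjusted p = 0.000238) at 30 ng/ml, and the 100 ng/ml level was lower than that at 10 ng/ml by 1.36 on the same scale. Mcm6, another ring subunit (chr1:128331590-128359664, - strand), measured 28.3 and 30.01 CPM in untreated cells, 60.04 and 56.9 at 10 ng/ml, 56.8 and 50.8 at 30 ng/ml and 33.8 and 39.6 at 100 ng/ml. The groups at the lower doses did not overlap the untreated pair, and the change was 1.004 ± 0.10 (SE, adjusted p = 0.000248) at 10 ng/ml and 0.88 ± 0.10 (SE, adjusted p = 0.000642) at 30 ng/ml. Mcm7 (chr5:138164583-138172422, - strand) measured 25.7 and 24.5 CPM in untreated cells, 52.4 and 45.5 at 10 ng/ml, 56.1 and 48.2 at 30 ng/ml and 29.5 and 30.4 at 100 ng/ml. It too was well separated from untreated at the lower doses, with changes of 0.96 ± 0.11 (SE, adjusted p = 0.000365) and 1.05 ± 0.11 (SE, adjusted p = 0.000307). Exons of Ap4m1, Cops6, Mir25 and Mir93 overlap 12.6% of its exon length.

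Mcm10, which helps to start synthesis at the assembled helicase, had the lowest mean per length of the 36 in untreated cells and, at 10 ng/ml, the largest change after Uhrf1. It measured 2.08 and 2.49 CPM in untreated cells, 8.25 and 7.597 at 10 ng/ml, 7.35 and 5.31 at 30 ng/ml and 2.66 and 3.201 at 100 ng/ml. Its lowest library at 10 or 30 ng/ml was above every untreated and 100 ng/ml library, and the change was 1.79 ± 0.22 (SE, adjusted p = 0.00062) at 10 ng/ml and 1.47 ± 0.22 (SE, adjusted p = 0.00217) at 30 ng/ml. Mcm3 measured 13.5 and 14.9 CPM in untreated cells, 49.8 and 32.2 at 10 ng/ml, 34.1 and 35.5 at 30 ng/ml and 17.3 and 21.4 at 100 ng/ml. The first library at 10 ng/ml was the highest by a wide margin, and the change at that dose was 1.53 ± 0.20 (SE, adjusted p = 0.00093). Mcm2 and Mcm4, also of the ring, changed by less. Mcm2 measured 27.4 and 26.96 CPM in untreated cells, 43.1 and 40.04 at 10 ng/ml, 39.9 and 36.5 at 30 ng/ml and 26.4 and 25.4 at 100 ng/ml, and Mcm4 measured 34.8 and 38.9 CPM in untreated cells, 55.9 and 54.5 at 10 ng/ml, 50.03 and 51.96 at 30 ng/ml and 37.6 and 37.4 at 100 ng/ml. Both were tight within groups, with changes at 10 ng/ml of 0.61 ± 0.09 (SE, adjusted p = 0.00132) and 0.58 ± 0.08 (SE, adjusted p = 0.00126), and both had 100 ng/ml levels close to untreated.

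The loading factors were less uniform. Cdc6 measured 3.04 and 4.05 CPM in untreated cells, 10.5 and 9.0 at 10 ng/ml, 10.99 and 6.56 at 30 ng/ml and 6.36 and 4.98 at 100 ng/ml. The 2 libraries at 30 ng/ml differed widely, and all 4 at the lower doses were above the untreated pair, with changes of 1.46 ± 0.28 (SE, adjusted p = 0.00576) and 1.31 ± 0.28 (SE, adjusted p = 0.0116), the latter lost without the first untreated library or the first library at 30 ng/ml (adjusted p up to 0.0809). Cdt1, which brings the ring to the origin, measured 7.07 and 5.64 CPM in untreated cells, 17.6 and 11.2 at 10 ng/ml, 8.98 and 9.82 at 30 ng/ml and 9.07 and 7.33 at 100 ng/ml. It was highest in the first library at 10 ng/ml, and the 30 and 100 ng/ml pairs overlapped each other. Its change was 1.18 ± 0.24 (SE, adjusted p = 0.00742) at 10 ng/ml and, not called, 0.57 ± 0.24 (SE, adjusted p = 0.135) at 30 ng/ml, and without the second untreated library the first of these calls was lost (adjusted p = 0.0543). Orc1, the largest subunit of the origin recognition complex, measured 1.72 and 0.883 CPM in untreated cells, 2.94 and 3.18 at 10 ng/ml, 3.105 and 3.26 at 30 ng/ml and 2.14 and 1.78 at 100 ng/ml. The untreated libraries differed 1.95-fold, and the change was 1.23 ± 0.32 (SE, adjusted p = 0.0238) at 10 ng/ml and 1.29 ± 0.32 (SE, adjusted p = 0.0239) at 30 ng/ml. Leaving out 1 library moved the first of these between 0.83 and 1.79, the highest without the first untreated library, and the call was lost without the second untreated library or either library at 10 ng/ml. The call at 30 ng/ml was likewise lost without that untreated library or either library at 30 ng/ml. Orc6, another subunit of the complex, did not follow the other licensing genes and measured 13.6 and 13.4 CPM in untreated cells, 14.3 and 15.2 at 10 ng/ml, 16.2 and 13.2 at 30 ng/ml and 15.7 and 15.5 at 100 ng/ml. Both libraries at 10 ng/ml and both at 100 ng/ml lay a little above its untreated pair, and the second library at 30 ng/ml lay below it. Its change at 10 ng/ml was 0.13 (95% interval -0.16 to 0.42, adjusted p = 0.497). Exons of Vps35 overlap 6.93% of its exon length, and those of Gm12743 overlap 10.8% of that of Orc1.

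The stretches of 250 bases before the RefSeq start of 3 of these genes are printed because they differ in the E2F sites they hold. They come from the RefSeq promoter table on GRCm38.p6, the assembly also called mm10, and are read 5′ to 3′ on the strand of the gene. Capitals mark E2F words, TTTCCCGC, TTTCGCGC, TTTGCCGC or TTTGGCGC on either strand. Where a stretch holds none, capitals mark CCAAT boxes, CCAAT on either strand.
Mcm5, chr8:75109259-75109508, + strand: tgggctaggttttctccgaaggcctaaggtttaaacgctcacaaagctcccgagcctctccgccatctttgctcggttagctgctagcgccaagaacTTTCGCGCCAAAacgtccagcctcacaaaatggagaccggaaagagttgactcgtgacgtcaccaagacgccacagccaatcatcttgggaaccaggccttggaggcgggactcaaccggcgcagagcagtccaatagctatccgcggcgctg
Mcm6, chr1:128359706-128359955, - strand: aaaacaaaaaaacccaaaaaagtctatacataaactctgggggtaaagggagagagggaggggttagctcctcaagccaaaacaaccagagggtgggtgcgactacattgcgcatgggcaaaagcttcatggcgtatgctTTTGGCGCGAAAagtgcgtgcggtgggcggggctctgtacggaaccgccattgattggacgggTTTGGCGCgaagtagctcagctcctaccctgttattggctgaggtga
Mcm10, chr2:5012792-5013041, - strand: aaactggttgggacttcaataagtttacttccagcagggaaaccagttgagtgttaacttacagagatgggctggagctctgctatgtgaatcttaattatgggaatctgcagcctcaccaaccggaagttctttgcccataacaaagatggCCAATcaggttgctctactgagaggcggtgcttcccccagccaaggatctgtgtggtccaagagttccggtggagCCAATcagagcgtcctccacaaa
In Mcm5 a pair of E2F words on opposite strands overlap, and Mcm6 holds such an overlapping pair and a further word. Mcm10 has no E2F word in this stretch, only CCAAT boxes. Its change was above those of Mcm5 and Mcm6 at 10 ng/ml and below that of Mcm5 at 30 ng/ml, and these differences were not tested. A match is a description of letters, not a bound site.

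In the helicase activation group, 4 of 5 genes rose at 10 ng/ml and 2 at 30 ng/ml. Cdc45 (chr16:18780447-18811987, - strand) measured 4.23 and 4.55 CPM in untreated cells, 8.199 and 9.28 at 10 ng/ml, 9.34 and 9.28 at 30 ng/ml and 4.599 and 5.05 at 100 ng/ml. All libraries at the lower doses lay well above the other 4, with changes of 0.99 ± 0.15 (SE, adjusted p = 0.00157) at 10 ng/ml and 1.08 ± 0.15 (SE, adjusted p = 0.00131) at 30 ng/ml. Gins1 to Gins4 encode the subunits of GINS, and their values were more scattered. Gins1 was among the scarce transcripts, with 1.58 and 1.24 CPM in untreated cells, 2.54 and 2.85 at 10 ng/ml, 3.04 and 2.88 at 30 ng/ml and 1.78 and 2.43 at 100 ng/ml. The lower doses did not overlap untreated, and the changes were 0.93 ± 0.26 (SE, adjusted p = 0.0291) and 1.07 ± 0.26 (SE, adjusted p = 0.0202), the first lost without any 1 library of either group and with DESeq2, and the second without the second untreated library or either library at 30 ng/ml. Gins2 measured 7.69 and 5.82 CPM in untreated cells, 18.7 and 19.8 at 10 ng/ml, 7.73 and 14.3 at 30 ng/ml and 13.5 and 10.6 at 100 ng/ml. Its first library at 30 ng/ml lay just above the untreated pair and its second lay between the 100 ng/ml pair and the 10 ng/ml pair. The change was 1.51 ± 0.29 (SE, adjusted p = 0.00565) at 10 ng/ml and 0.71 ± 0.29 (SE, adjusted p = 0.122) at 30 ng/ml, and without that first library the latter was 1.08 (adjusted p = 0.0164). Exons of Gse1 on the opposite strand overlap 67.3% of the exon length of Gins2, so its counts are uncertain.

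Gins3 measured 4.63 and 4.01 CPM in untreated cells, 7.26 and 5.82 at 10 ng/ml, 5.64 and 4.25 at 30 ng/ml and 3.24 and 6.68 at 100 ng/ml. The 100 ng/ml libraries fell on either side of the untreated pair and differed 2.06-fold, and the change at 10 ng/ml was 0.60 (95% interval -0.17 to 1.36, adjusted p = 0.22). Gins4 was the most abundant GINS transcript and changed little, with 21.3 and 21.6 CPM in untreated cells, 28.1 and 27.1 at 10 ng/ml, 24.99 and 24.1 at 30 ng/ml and 22.3 and 25.01 at 100 ng/ml. The pair at 10 ng/ml was above all other libraries, and the change was 0.36 ± 0.09 (SE, adjusted p = 0.0204), or 1.29-fold. That call was lost without either untreated library or either library at 10 ng/ml. At 30 ng/ml the change of Gins4 was 0.19 (95% interval -0.02 to 0.41, adjusted p = 0.184).

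Among the polymerases and primase, 5 of 6 genes rose at 10 ng/ml and 4 at 30 ng/ml. Pole, the catalytic subunit of polymerase epsilon on the leading strand (chr5:110286306-110337474, + strand), measured 5.27 and 6.24 CPM in untreated cells, 16.9 and 15.2 at 10 ng/ml, 14.8 and 13.8 at 30 ng/ml and 7.09 and 8.55 at 100 ng/ml. No library at the lower doses came near the untreated pair, and the 100 ng/ml pair lay between, with changes of 1.48 ± 0.15 (SE, adjusted p = 0.000256) and 1.31 ± 0.15 (SE, adjusted p = 0.000637). Pold1, the catalytic subunit of polymerase delta, measured 10.3 and 11.1 CPM in untreated cells, 19.4 and 17.1 at 10 ng/ml, 18.5 and 16.9 at 30 ng/ml and 13.97 and 14.2 at 100 ng/ml. The groups at the lower doses were clear of the untreated pair, and the changes were 0.77 ± 0.12 (SE, adjusted p = 0.00181) and 0.72 ± 0.12 (SE, adjusted p = 0.00307). Pola1, the catalytic subunit of polymerase alpha, measured 9.85 and 11.3 CPM in untreated cells, 15.6 and 18.05 at 10 ng/ml, 16.2 and 13.3 at 30 ng/ml and 10.8 and 10.5 at 100 ng/ml. Its 100 ng/ml pair fell within the untreated range, and the change was 0.67 ± 0.15 (SE, adjusted p = 0.0108) at 10 ng/ml, a call lost without the first untreated library or the second library at 10 ng/ml. At 30 ng/ml the change was 0.48 ± 0.15 (SE, adjusted p = 0.0495), a call that was lost under 11 of 17 alternatives.

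Pola2, the accessory subunit of polymerase alpha, did not share the rise of Pola1 in these tests and measured 14.98 and 15.6 CPM in untreated cells, 18.9 and 17.04 at 10 ng/ml, 15.3 and 17.1 at 30 ng/ml and 14.8 and 15.7 at 100 ng/ml. Both libraries at 10 ng/ml lay above the untreated pair by little, and the change at that dose was 0.23 (95% interval -0.03 to 0.49, adjusted p = 0.166). Whether Pola1 and Pola2 differ was not tested. Prim1, the catalytic primase, measured 5.33 and 6.26 CPM in untreated cells, 10.6 and 8.77 at 10 ng/ml, 10.2 and 8.19 at 30 ng/ml and 8.22 and 7.35 at 100 ng/ml. The lower doses stood above untreated, and the changes were 0.74 ± 0.18 (SE, adjusted p = 0.0167) and 0.67 ± 0.18 (SE, adjusted p = 0.0305). The first call was lost without the first untreated library or the first library at 10 ng/ml, and the second under 5 of 17 alternatives. Prim2, the large primase subunit, measured 12.3 and 10.9 CPM in untreated cells, 16.9 and 15.5 at 10 ng/ml, 14.1 and 17.4 at 30 ng/ml and 12.5 and 13.4 at 100 ng/ml. Its second library at 30 ng/ml was its highest value, and the changes were 0.49 ± 0.14 (SE, adjusted p = 0.0342) and, not called, 0.44 ± 0.14 (SE, adjusted p = 0.0566). The call of Prim2 at 10 ng/ml was lost under 9 of 17 alternatives. The stretch before the start of Pola1 is shown because it holds an E2F word in a gene of modest change.
Pola1, chrX:93632156-93632405, - strand: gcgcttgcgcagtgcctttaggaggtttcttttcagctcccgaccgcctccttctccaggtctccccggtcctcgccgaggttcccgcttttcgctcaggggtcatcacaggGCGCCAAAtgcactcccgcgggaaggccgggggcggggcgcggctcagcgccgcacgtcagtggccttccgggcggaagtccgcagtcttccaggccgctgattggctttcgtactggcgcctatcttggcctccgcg

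**Figure D2:**
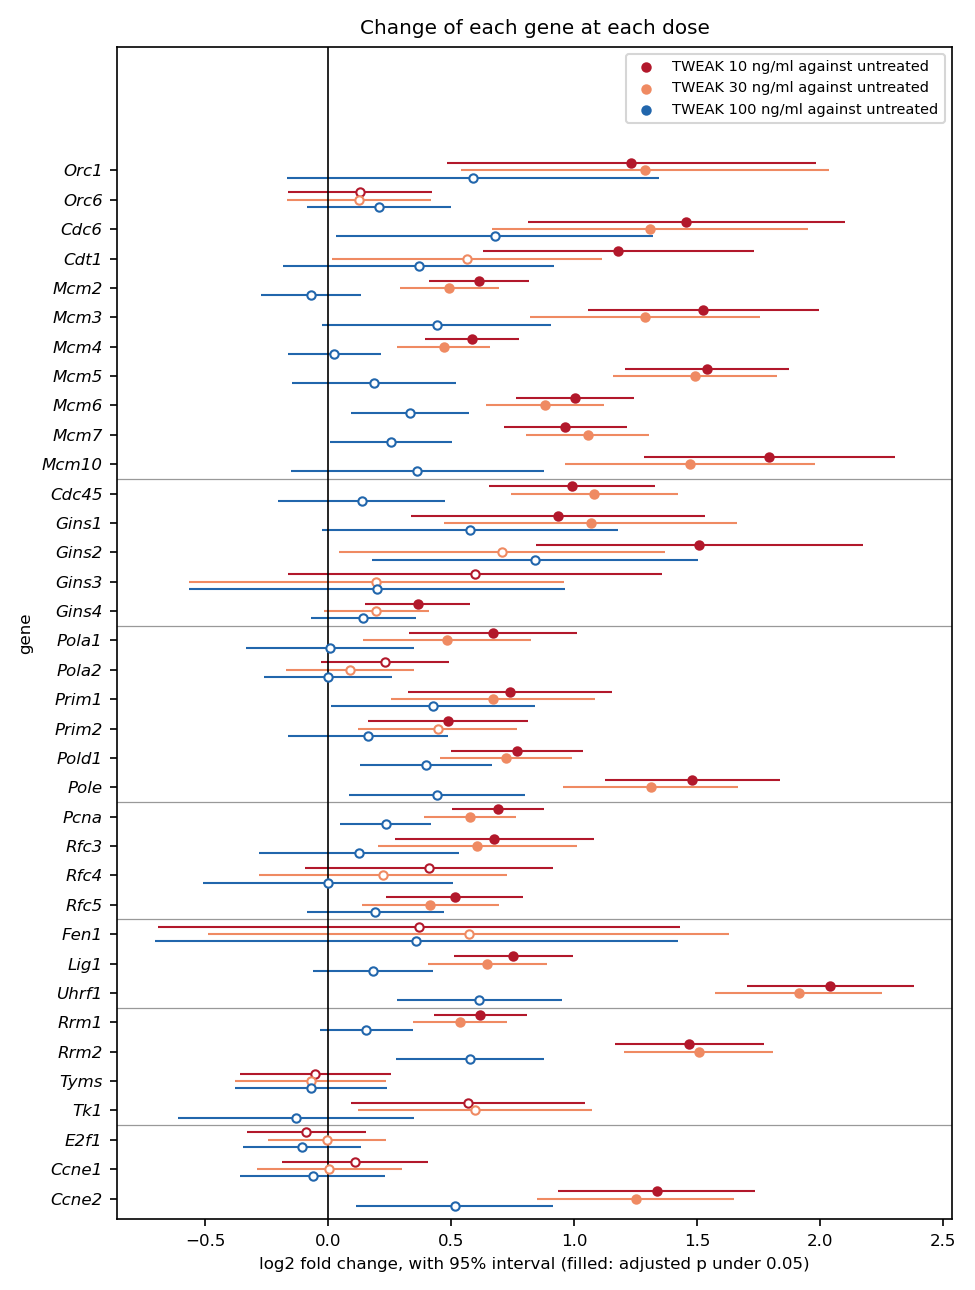
Log2 fold change of each of the 36 genes against untreated cells at 10 (dark red), 30 (orange) and 100 ng/ml (blue), points with 95% intervals, filled where the adjusted p was under 0.05, and lines between roles. Uhrf1 has the largest change at 10 ng/ml, 2.04, the 100 ng/ml points lie nearer to 0 in most rows, and no 100 ng/ml point is filled.

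The clamp and its loader moved by modest folds. Of 4 genes, 3 rose at both 10 and 30 ng/ml. Pcna, the sliding clamp (chr2:132249162-132253314, - strand), was the most abundant of the 36 per length and measured 60.3 and 56.4 CPM in untreated cells, 98.1 and 90.3 at 10 ng/ml, 83.9 and 90.1 at 30 ng/ml and 70.8 and 66.3 at 100 ng/ml. The lower doses did not overlap untreated, and the 100 ng/ml pair lay between, with changes of 0.69 ± 0.08 (SE, adjusted p = 0.000473), 0.58 ± 0.08 (SE, adjusted p = 0.00158) and, not called, 0.23 ± 0.08 (SE, adjusted p = 0.299). Rfc3 and Rfc5 are small subunits of the clamp loader. Rfc3 measured 7.89 and 7.001 CPM in untreated cells, 12.1 and 11.7 at 10 ng/ml, 12.1 and 10.6 at 30 ng/ml and 6.86 and 9.38 at 100 ng/ml, and its 100 ng/ml libraries fell on either side of the untreated pair. Rfc5 measured 9.43 and 8.73 CPM in untreated cells, 12.8 and 13.1 at 10 ng/ml, 12.7 and 11.5 at 30 ng/ml and 10.5 and 10.2 at 100 ng/ml, with little spread within a group. At 10 ng/ml the changes of Rfc3 and Rfc5 were 0.68 ± 0.17 (SE, adjusted p = 0.0223) and 0.51 ± 0.12 (SE, adjusted p = 0.0143), both lost without either untreated library or either library at 10 ng/ml. At 30 ng/ml they were 0.61 ± 0.17 (SE, adjusted p = 0.0407) and 0.41 ± 0.12 (SE, adjusted p = 0.041), and these calls were lost under 8 and 13 of 17 alternatives, that of Rfc5 also with DESeq2. Rfc4, a further small subunit, measured 4.61 and 5.34 CPM in untreated cells, 6.73 and 6.498 at 10 ng/ml, 6.03 and 5.57 at 30 ng/ml and 3.92 and 6.03 at 100 ng/ml. Its treated libraries at 10 and 30 ng/ml were above the untreated pair by little, and the change at 10 ng/ml was 0.41 (95% interval -0.09 to 0.92, adjusted p = 0.204). Exons of Eif4a2 and Wsb2 overlap 12.7% and 10.7% of the exon lengths of Rfc4 and Rfc5.

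In maturation and maintenance, Uhrf1 and Lig1 rose at 10 and 30 ng/ml. Uhrf1, which binds newly replicated DNA that is methylated on 1 strand and recruits the maintenance methyltransferase (chr17:56303321-56323486, + strand), measured 10.3 and 12.5 CPM in untreated cells, 49.6 and 44.02 at 10 ng/ml, 47.5 and 38.1 at 30 ng/ml and 16.7 and 18.1 at 100 ng/ml. The 10 and 30 ng/ml libraries stood apart from all others, and the 100 ng/ml pair was also above the untreated pair. Its change of 2.04 ± 0.15 (SE, adjusted p = 3.90e-05) at 10 ng/ml, or 4.12-fold, was the largest of the 36, and at 30 ng/ml it was 1.91 ± 0.15 (SE, adjusted p = 7.81e-05). At 100 ng/ml the change was 0.61 ± 0.14 (SE, adjusted p = 0.117) with edgeR, while DESeq2 gave an adjusted p of 0.00627. Lig1, the ligase that seals lagging-strand fragments, measured 18.1 and 18.8 CPM in untreated cells, 30.1 and 31.98 at 10 ng/ml, 31.2 and 26.5 at 30 ng/ml and 20.4 and 21.4 at 100 ng/ml. Its groups at the lower doses were clear of untreated, with changes of 0.75 ± 0.10 (SE, adjusted p = 0.00117) and 0.65 ± 0.10 (SE, adjusted p = 0.00315). Fen1, the flap nuclease that trims those fragments, gave no reading in either direction, with 9.73 and 9.19 CPM in untreated cells, 6.54 and 17.8 at 10 ng/ml, 9.25 and 18.9 at 30 ng/ml and 11.3 and 12.9 at 100 ng/ml. The libraries of a group differed 2.72-fold at 10 ng/ml and 2.04-fold at 30 ng/ml, so that at 10 ng/ml 1 library lay below and the other above the untreated pair, and at 30 ng/ml 1 lay within it and the other above. The change at 10 ng/ml was 0.37 (95% interval -0.69 to 1.43, adjusted p = 0.601). Exons of Tmem258 and of the antisense gene Gm10143 overlap 84.2% of the exon length of Fen1, and its counts are uncertain. The stretch before 1 of the 2 RefSeq starts of Uhrf1 is shown, the start with an E2F word.
Uhrf1, chr17:56304063-56304312, + strand: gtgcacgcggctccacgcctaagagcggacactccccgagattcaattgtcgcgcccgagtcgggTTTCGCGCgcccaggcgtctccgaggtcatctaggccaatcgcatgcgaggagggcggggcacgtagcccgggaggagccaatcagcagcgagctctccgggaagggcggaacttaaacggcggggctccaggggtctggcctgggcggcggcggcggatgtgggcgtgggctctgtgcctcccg

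Nucleotide supply divided into genes that rose and genes that were not called. Rrm2, the subunit of ribonucleotide reductase that is made in S phase (chr12:24708241-24714146, + strand), measured 10.9 and 13.4 CPM in untreated cells, 33.1 and 34.1 at 10 ng/ml, 37.01 and 31.9 at 30 ng/ml and 17.2 and 19.01 at 100 ng/ml. Both lower doses were far above untreated, and the 100 ng/ml pair lay between. Its changes were 1.47 ± 0.13 (SE, adjusted p = 0.000113) at 10 ng/ml and 1.51 ± 0.13 (SE, adjusted p = 0.000142) at 30 ng/ml, and at 100 ng/ml 0.58 ± 0.13 (SE, adjusted p = 0.104) with edgeR, where DESeq2 gave an adjusted p of 0.00936. Rrm1, the large subunit of the same enzyme, measured 70.1 and 68.04 CPM in untreated cells, 107 and 105 at 10 ng/ml, 105 and 94.9 at 30 ng/ml and 72.9 and 80.9 at 100 ng/ml. It was tight within groups and clear of untreated at the lower doses, with changes of 0.62 ± 0.08 (SE, adjusted p = 0.000937) and 0.54 ± 0.08 (SE, adjusted p = 0.00248). Tyms, which makes thymidylate, measured 18.9 and 19.8 CPM in untreated cells, 18.1 and 19.2 at 10 ng/ml, 16.9 and 19.9 at 30 ng/ml and 20.3 and 16.6 at 100 ng/ml. All groups overlapped, and the change was -0.05 (95% interval -0.36 to 0.25, adjusted p = 0.811) at 10 ng/ml and -0.07 (95% interval -0.38 to 0.24, adjusted p = 0.754) at 30 ng/ml. Tk1, which salvages thymidine, measured 9.01 and 9.21 CPM in untreated cells, 16.6 and 10.5 at 10 ng/ml, 14.6 and 12.98 at 30 ng/ml and 8.19 and 8.43 at 100 ng/ml. The second library at 10 ng/ml lay only a little above the untreated pair and the first far above it. Its change at 10 ng/ml was 0.57 (95% interval 0.09 to 1.04, adjusted p = 0.0753) and at 30 ng/ml 0.60 (95% interval 0.12 to 1.07, adjusted p = 0.0757), and without the second library at 10 ng/ml the first of these was 0.86 (adjusted p = 0.00657). The stretches before Rrm2, whose capitals mark a CCAAT box, and Tyms, which holds neither word, are shown as a gene with a large change and a gene without one.
Rrm2, chr12:24708004-24708253, + strand: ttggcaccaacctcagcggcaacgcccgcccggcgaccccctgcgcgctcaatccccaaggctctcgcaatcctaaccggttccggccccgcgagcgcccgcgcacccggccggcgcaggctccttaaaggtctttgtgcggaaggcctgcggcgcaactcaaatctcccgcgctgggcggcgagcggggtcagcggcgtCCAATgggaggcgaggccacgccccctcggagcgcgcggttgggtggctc
Tyms, chr5:30073626-30073875, - strand: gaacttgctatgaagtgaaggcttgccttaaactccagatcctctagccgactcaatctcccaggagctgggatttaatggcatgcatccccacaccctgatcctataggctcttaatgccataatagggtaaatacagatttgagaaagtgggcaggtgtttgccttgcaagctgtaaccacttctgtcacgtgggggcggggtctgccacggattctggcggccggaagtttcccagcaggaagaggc

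Of the 3 genes of G1/S control, Ccne2 alone was called. Ccne2 encodes a form of cyclin E (chr4:11191351-11204779, + strand) and measured 5.25 and 4.71 CPM in untreated cells, 12.9 and 12.3 at 10 ng/ml, 12.2 and 11.5 at 30 ng/ml and 6.01 and 8.23 at 100 ng/ml. The 4 libraries at the lower doses were close together and far from the untreated pair, and the 100 ng/ml pair lay between. Its changes were 1.34 ± 0.17 (SE, adjusted p = 0.000824) at 10 ng/ml and 1.25 ± 0.17 (SE, adjusted p = 0.0015) at 30 ng/ml, and the level at 100 ng/ml was lower than at 10 ng/ml by 0.82 on the log2 scale. Exons of Ints8 overlap 17.4% of its exon length. Ccne1, the other form of cyclin E, measured 13.2 and 14.4 CPM in untreated cells, 15.9 and 13.9 at 10 ng/ml, 14.4 and 13.2 at 30 ng/ml and 12.4 and 13.96 at 100 ng/ml. Every group overlapped the untreated pair, and the changes were 0.11 (95% interval -0.19 to 0.40, adjusted p = 0.578), 0.00 (95% interval -0.29 to 0.30, adjusted p = 0.989) and -0.06 (95% interval -0.36 to 0.23, adjusted p = 0.912) in order of dose. E2f1, an activating E2F transcription factor, measured 33.95 and 31.1 CPM in untreated cells, 31.6 and 29.5 at 10 ng/ml, 30.8 and 33.9 at 30 ng/ml and 28.3 and 32.1 at 100 ng/ml. Its groups also overlapped, with changes of -0.09 (95% interval -0.33 to 0.15, adjusted p = 0.573) and -0.01 (95% interval -0.25 to 0.24, adjusted p = 0.981) at the lower doses. At 10 ng/ml the upper bounds of both intervals lay below the lower bound of that of Ccne2, 0.93.

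The balance of cyclin E forms is given by the log2 ratio of Ccne2 to Ccne1 CPM within a library, of which only the shift between libraries is read, since the genes differ in length. It was -1.33 and -1.61 in untreated cells, -0.30 and -0.17 at 10 ng/ml, -0.24 and -0.20 at 30 ng/ml and -1.05 and -0.76 at 100 ng/ml. All 4 libraries at the lower doses were above the other 4. The log2 ratio of Rrm2 to Rrm1 was -2.69 and -2.35 in untreated cells, -1.69 and -1.63 at 10 ng/ml, -1.51 and -1.57 at 30 ng/ml and -2.08 and -2.09 at 100 ng/ml. Again the lower doses lay above the other groups without overlap, and the 100 ng/ml pair lay above the untreated pair. Within the helicase ring, the log2 ratio of Mcm5 to Mcm2 was -1.77 and -1.65 in untreated cells, -0.74 and -0.84 at 10 ng/ml, -0.62 and -0.82 at 30 ng/ml and -1.45 and -1.47 at 100 ng/ml. The order of groups was the same as for Rrm2 and Rrm1. The log2 ratio of Pole to Pola1 was -0.90 and -0.86 in untreated cells, 0.12 and -0.25 at 10 ng/ml, -0.13 and 0.05 at 30 ng/ml and -0.61 and -0.29 at 100 ng/ml, with the lower doses highest. These ratios follow from the changes given above and were not tested.

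Levels between genes were compared as CPM per kb of merged GENCODE M21 exons, which includes exons of all annotated isoforms. In untreated cells, Pcna was highest at 24.3 (libraries 23.5 and 25.1), followed by Gins4 at 15.9 (15.8 and 16.01). E2f1 at 10.3 (9.85 and 10.8) and Mcm4 at 10.3 (9.68 and 10.8) came next and could not be ordered, since their libraries overlapped. Mcm10 at 0.297 (0.270 and 0.323), Orc1 at 0.374 (0.254 and 0.494) and Pole at 0.516 (0.472 and 0.559) were lowest, and in this order the libraries of each overlapped those of the next. By this measure the ring subunits were not at 1 level in untreated cells, and their order depends on the merged exon lengths. Mcm4 was followed by Mcm6 at 6.25, Mcm7 at 5.67, Mcm2 at 3.91, Mcm3 at 3.79 and Mcm5 at 2.08 CPM per kb. At 10 ng/ml the same means were 15.4 for Mcm4, 12.5 for Mcm6, 11.1 for Mcm7, 5.97 for Mcm2, 10.9 for Mcm3 and 6.04 for Mcm5. Mcm5, the lowest by this measure in untreated cells, and Mcm3 had the largest changes of the ring. In untreated cells Mcm3 (libraries 3.61 and 3.98) and Mcm2 (3.94 and 3.88) could not be ordered, since their libraries overlapped. Level and change use the same untreated libraries, so the 2 are not independent, and a link was not tested. Mcm2, next to Mcm3 in level per kb, changed less, and its place rests on 6.956 kb of merged exons against 3.752 kb for Mcm3.

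**Figure D3:**
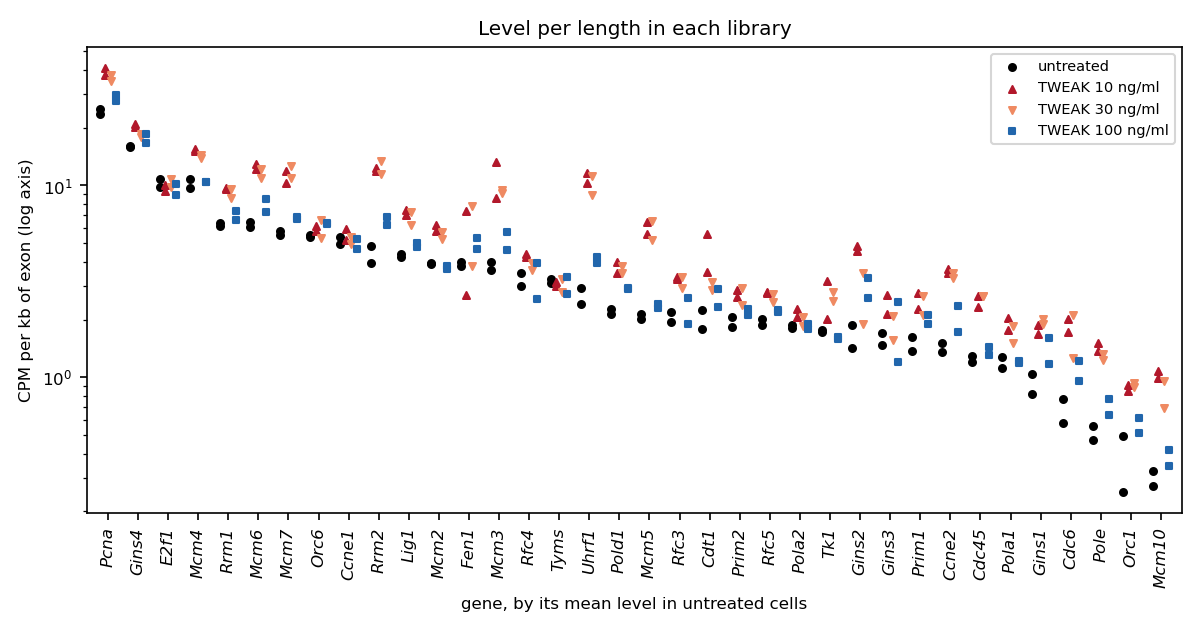
CPM per kb of exon (log axis) of each of the 36 genes in each library, with genes ordered by their mean in untreated cells and a marker shape for each group. The untreated means span 24.3 for Pcna to 0.297 for Mcm10, and the widest gap between libraries of a group is that of Fen1 at 10 ng/ml.

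Set beside all tested genes, the 36 genes formed a shifted distribution. Their log2 changes ran from -0.09 to 2.04 at 10 ng/ml, from -0.07 to 1.91 at 30 ng/ml and from -0.13 to 0.84 at 100 ng/ml. Those of all tested genes ran from -11.1 to 13.2, from -10.4 to 12.4 and from -11.1 to 15.8 in the same order. A range widens with the number of genes, so these are not like measures. At 10 ng/ml the 10th and 90th percentiles of all tested genes were -0.94 and 1.01. Of the 36, 34 had a fitted change above 0 at 10 ng/ml and 34 at 30 ng/ml, the exceptions being Tyms and E2f1, and 29 had one at 100 ng/ml. Of all 17360 genes tested, 8758, 8788 and 8738 had one in order of dose. E2f1 at 30 ng/ml was at 0.02 when libraries were scaled by their totals, so its sign there depends on the scaling.

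**Figure D4:**
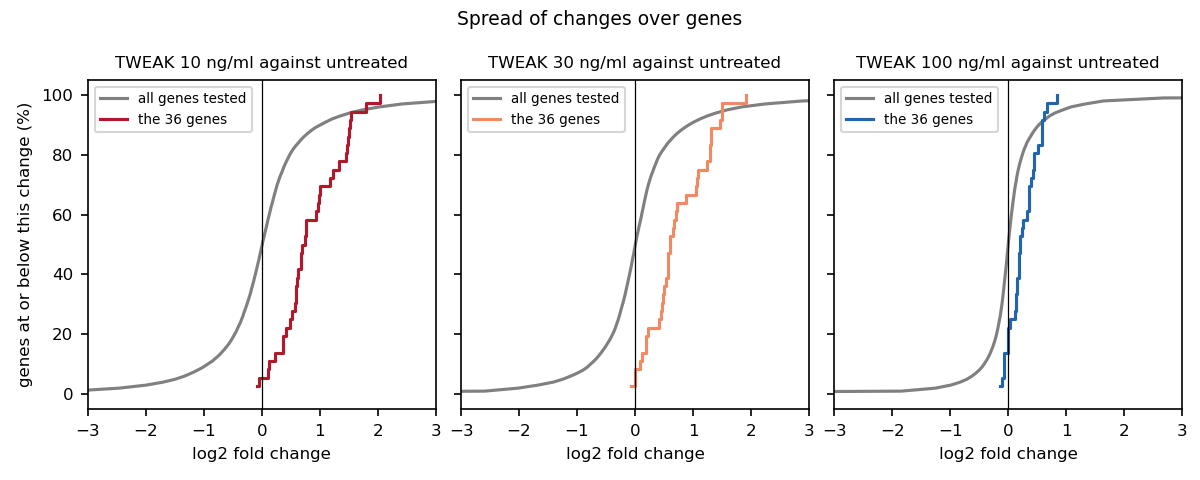
Cumulative share (%) of genes at or below each log2 fold change against untreated cells, for all 17360 tested genes (gray) and the 36 genes (colored steps), with 1 panel per dose. The steps lie to the right of the gray curve by most at 10 ng/ml, where the medians are 0.72 and 0.01, and by least at 100 ng/ml.

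In the RefSeq table, windows of 300 bases, 250 before and 50 after the start, were found for 29 of the 36 genes, 34 windows in all. Mcm4, Gins1, Gins2, Gins4, Prim2, Pole and Ccne2 were not matched. The 4 E2F words were searched on both strands, and words on opposite strands can overlap each other. At least 1 was present in 38.2% of the 34 windows and in 2.26% of all 32851 windows of the same length. Counted by gene, 13 of 29 held an E2F word (44.8%), against 2.6% of 27025 genes. Of the 20 genes with a window that rose at 10 ng/ml, 12 held one (60%), and of the 9 that were not called, 1 did (11.1%), Gins3. CCAAT, with ATTGG on the other strand, was present in 55.9% of the windows and 37.4% of all windows, in 15 of the 20 genes that rose and in 2 of the 9 others. The CHR element TTTGAA, or TTCAAA, was in 11.8% of the windows and 17.9% of all. These shares describe letters in fixed windows, and no test was made. The 250 bases before the start lay wholly within annotated exons in 4 of the windows, 1 each for Mcm7, Fen1, Lig1 and E2f1, and the E2F words of Mcm7 were in that window. Windows without a word can have 1 outside them.

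**Figure D5:**
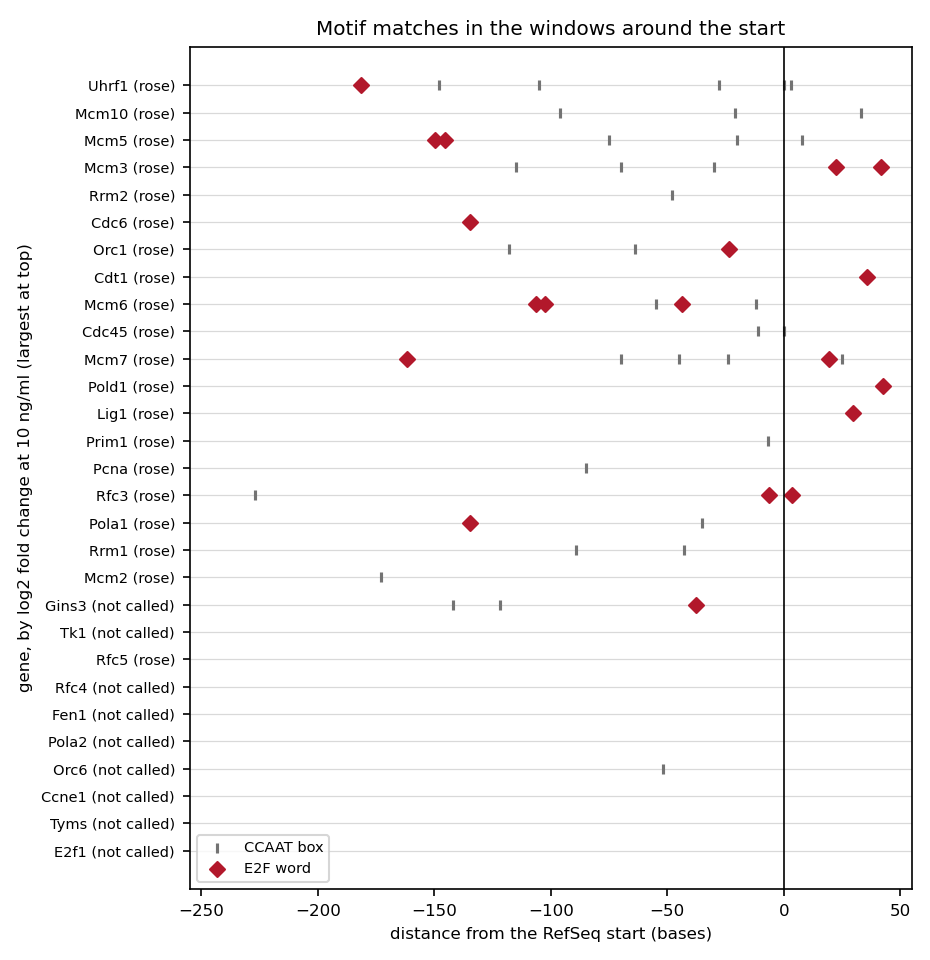
Position of E2F words (red diamonds) and CCAAT boxes (gray bars) relative to the RefSeq start in the 29 genes with a window, as distance in bases, with genes ordered by their log2 change at 10 ng/ml and windows of 1 gene drawn on 1 line. E2F words are drawn for 13 genes, 12 of them among those that rose, and the lower rows hold few marks.

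Beyond the 36, a list of 44 other genes of the fork, the origin and chromatin assembly was examined. It too was drawn up with earlier results of these data known, so its calls are a description and not independent support. All 44 were tested, and 21 rose at 10 ng/ml, 21 at 30 ng/ml and none at 100 ng/ml, where 15%, 12.6% and 0.812% of all tested genes rose. None of the 44 fell. Their median log2 change at 10 ng/ml was 0.40. Clspn, a mediator of the replication checkpoint, rose by 1.33 ± 0.15 (SE, adjusted p = 0.000352) at 10 ng/ml on the log2 scale, with levels of 6.07 and 5.08 CPM in untreated cells, 14.8 and 13.2 at 10 ng/ml, 13.6 and 12.8 at 30 ng/ml and 7.46 and 6.75 at 100 ng/ml. Nasp, a histone chaperone, rose by 0.70 ± 0.10 (SE, adjusted p = 0.00138), Chaf1b of chromatin assembly factor 1 by 1.13 ± 0.17 (SE, adjusted p = 0.00172) and Topbp1, which helps activate origins, by 0.55 ± 0.09 (SE, adjusted p = 0.00224).

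In a list of 26 other G1/S regulators, drawn up with the same knowledge, 25 were tested. At 10 ng/ml 8 rose and 4 fell, where 15% and 14.2% of all tested genes did, so that the share that fell was near that of all genes. At 30 ng/ml 9 rose and 2 fell, against 12.6% and 10.7% of all genes, and at 100 ng/ml 1 rose and 1 fell, against 0.812% and 0.305%. Ccnd1, the D-type cyclin that starts the phosphorylation of Rb, measured 23.7 and 24.8 CPM in untreated cells, 208 and 196 at 10 ng/ml, 182 and 139 at 30 ng/ml and 45.6 and 43.8 at 100 ng/ml. No group overlapped another, and the change was 3.06 ± 0.13 (SE, adjusted p = 4.49e-06) at 10 ng/ml and 0.88 ± 0.12 (SE, adjusted p = 0.0171) at 100 ng/ml. Myc, a growth-promoting transcription factor, rose by 2.06 ± 0.16 (SE, adjusted p = 4.89e-05) on the log2 scale at 10 ng/ml, Cdk6, a partner of D-type cyclins, by 0.84 ± 0.10 (SE, adjusted p = 0.00041) and E2f8, a repressing E2F, by 1.58 ± 0.18 (SE, adjusted p = 0.000449). The genes that fell at 10 ng/ml were the D-type cyclins Ccnd2, at -0.34 ± 0.05 (SE, adjusted p = 0.00118), and Ccnd3, at -1.29 ± 0.34 (SE, adjusted p = 0.0231), and the pocket proteins Rb1, at -0.32 ± 0.09 (SE, adjusted p = 0.0324), and Rbl2, at -0.59 ± 0.08 (SE, adjusted p = 0.000987). Ccnd3 measured 80.7 and 34.5 CPM in untreated cells, 24.8 and 22.4 at 10 ng/ml, 30.5 and 38.7 at 30 ng/ml and 36.5 and 38.4 at 100 ng/ml. Its untreated libraries were far apart, and without the first of them the change was -0.55 (adjusted p = 0.0551). The call of Ccnd3 was also lost without either library at 10 ng/ml and with limma-voom, and that of Rb1 under 8 of 17 alternatives. Ccnd2 was also lower at 100 ng/ml, by 0.28 on the log2 scale (adjusted p = 0.0419). All 6 treated libraries had less Ccnd2 than both untreated libraries. The call of Ccnd2 at 100 ng/ml was lost when any 1 library was left out, and that of Ccnd1 without either untreated library or either library at 100 ng/ml.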

How the data were processed

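RNA sequencing was done on 8 libraries of primary mouse lung fibroblasts in 4 groups of 2, grouped by sample titles. The deposited table gives raw counts per gene, not normalized by the authors. The mm10 build, STAR and StringTie are named per the submitters' processing notes, without versions or roles. How reads were counted, on which annotation and with or without strand is not given in the sources used here, so reads of overlapping genes or near-identical copies cannot be assigned with certainty. Rows without a symbol (3225, at most 0.178% of counts) were left out.

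Counts were filtered with filterByExpr by group, scaled by TMM and fitted in edgeR 4.0.16 (R 4.3.3) with glmQLFit and glmQLFTest, in 1 fit of all 8 libraries with 4 residual and 3.77 prior degrees of freedom. The 6 contrasts were two-sided, with Benjamini-Hochberg adjustment over 17360 genes. Standard errors were derived from the change and its F statistic. The script was tested on simulated data. Libraries of a group differed beyond sampling noise (chi-square per degree of freedom 22.7 to 27.6), and each was kept as its own replicate. The members and the gene lists were chosen with earlier results of these data known. Values per library were to be given for the 3 genes of each role with the smallest p at 10 ng/ml and for genes that missed a call, and were also given for the others after they were seen. In the other lists, the 4 genes with the smallest p at 10 ng/ml and those moving against the list were named. Positions and exon overlaps are from GENCODE M21 on mm10, and promoter windows from RefSeq on GRCm38.p6. Motifs in proteins were not analysed here. Alternatives were DESeq2 1.42.0, limma-voom (limma 3.58.1), other scalings and filters, a replicate block, only the groups compared, a fold limit (absolute log2 change of 1 or more) and omission of each library in turn. A fit without both libraries at 100 ng/ml was added after seeing the data.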

Additional observations from a re-analysis of the deposited data

How the results depend on the processing

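No called change of the 36 genes reversed under any alternative run. Of 27 calls at 10 ng/ml, 18 held in every alternative fit other than the fold limit (17 fits), as did 16 of 23 at 30 ng/ml (17 fits), 13 of 18 for 100 against 10 ng/ml and 6 of 15 for 100 against 30 ng/ml (16 fits each). Those 18 were Mcm2 to Mcm7, Mcm10, Cdc6, Cdc45, Gins2, Pcna, Rrm1, Rrm2, Pold1, Pole, Lig1, Uhrf1 and Ccne2. Limiting calls to an absolute log2 change of at least 1 left 12, 12, 5 and 3 calls in these comparisons. Calls over all tested genes at that limit were not counted. At 100 ng/ml against untreated, DESeq2 called 3. Leaving out 1 library gave 20 to 27 calls at 10 ng/ml, 17 to 21 at 30 ng/ml, 13 to 18 for 100 against 10 ng/ml and 6 to 16 for 100 against 30 ng/ml, where the low values were 6 without TWEAK100 replicate 1 and 8 without TWEAK30 replicate 1. The lone library left in a group was then assumed to vary like the others. With 1 library left out, the median change ranged from 0.71 to 0.79 at 10 ng/ml, 0.57 to 0.65 at 30 ng/ml, 0.19 to 0.25 at 100 ng/ml, -0.166 to -0.043 for 30 against 10 ng/ml and -0.49 to -0.38 for 100 against 30 ng/ml. Calls in the other 2 lists together (33, 32 and 2 in order of dose) ranged from 18 to 33, 17 to 28 and 0 to 1 with 1 library left out. The low values were 18 without untreated replicate 1 and 20 without TWEAK10 replicate 1 at 10 ng/ml, and 17 without either untreated library or TWEAK30 replicate 1 at 30 ng/ml. At 100 ng/ml the count was 1 with limma-voom, with library totals, with the replicate block and with only the groups compared. The cause was not tested.

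Same-numbered libraries did not deviate together over all tested genes (correlations from -0.07 to 0.03), which cannot exclude a pairing that affects few genes. The main fit did not use the replicate number. With it as a replicate block, 26 genes were called at 10 ng/ml, 20 at 30 ng/ml, 17 for 100 against 10 ng/ml and 15 for 100 against 30 ng/ml.

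Changes of sign occurred among uncalled values only. Without 1 library, log2 changes at 10 ng/ml ranged from -0.53 to 0.90 for Fen1 and from -9.43e-06 to 0.20 for Ccne1. At 30 ng/ml they ranged from -0.026 to 0.38 for Gins3, -0.035 to 0.27 for Orc6, -0.19 to 0.038 for Tyms, -0.033 to 0.99 for Fen1, -0.077 to 0.061 for E2f1 and -0.059 to 0.066 for Ccne1. At 100 ng/ml the ranges were -0.058 to 0.11 for Mcm4, -0.42 to 0.63 for Gins3, -0.12 to 0.33 for Rfc3, -0.35 to 0.28 for Rfc4, -0.23 to 0.068 for Tyms, -0.091 to 0.11 for Pola1, -0.048 to 0.042 for Pola2 and -0.15 to 0.018 for Ccne1. Library totals gave 0.024 for E2f1 at 30 ng/ml, and no filter gave -0.0097 for Ccne1 at 30 ng/ml and -0.0064 for Pola1 at 100 ng/ml. At 100 ng/ml Rfc4 was 0.0017 with DESeq2 and with its size factors in edgeR, 0.017 with library totals and 0.0050 with a mean of at least 1 CPM. Pola2 was 0.00061, 0.00060, 0.018 and 0.0043 in the same order.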
